A study of Rattus norvegicus with 68 samples.

Results

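The 26S proteasome degrades proteins that carry ubiquitin chains. Its genes were followed here in rat blood after acetaminophen. Members were defined by gene symbol, a choice made with earlier results of these data known. Taken was every probe whose gene is named Psma, Psmb, Psmc, Psmd, Psme, Psmf or Psmg followed by a number, with the mean over the probes of a gene. That gave 41 genes on 46 probes, of 9653 genes on 22075 probes in all. Of these, 36 had 1 probe and 5 had 2 (Psma4, Psmb2, Psmd2, Psmd5 and Psmd12). Psmc3ip fits the naming rule but encodes a recombination factor, and it was called different in no comparison. The other genes were 6 of the alpha ring and 7 of the beta ring of the 20S core, 3 immunoproteasome subunits (Psmb8, Psmb9 and Psmb10), 6 ATPases and 8 non-ATPase subunits of the 19S cap, 5 activators or inhibitors and 5 assembly chaperones. The 3 immunoproteasome genes were set against the other 37.

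The 20S core is a barrel of alpha and beta rings, and the beta subunits Psmb5, Psmb6 and Psmb7 cut the peptide chain. The 19S cap binds ubiquitin chains, unfolds the substrate with its ATPases and feeds it into the core. In cells exposed to interferon gamma, and constitutively in many lymphoid cells, Psmb8, Psmb9 and Psmb10 take the places of Psmb5, Psmb6 and Psmb7, and the peptides cut by this immunoproteasome are better suited to MHC class I molecules.

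Male F344/N rats of 10 to 12 weeks received 150, 1500 or 2500 mg/kg acetaminophen, or vehicle alone, in 0.5% ethyl cellulose by gavage in 2 parts, and blood RNA was taken at 6, 12 or 24 h. The 9 treated groups held 34 rats: 4 each, except 3 in the 150 and the 1500 mg/kg groups of 12 h. Every rat had a pair of arrays with exchanged dyes, 68 in all, against vehicle control RNA of the same time. By design that control was a pool of 4 animals at 6 h, 4 at 12 h and 6 at 24 h, although the 6 and 12 h control labels name a single rat and not a pool.

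Values are log2 ratios of a treated rat over the vehicle control, the mean of its 2 arrays, so 0 means no difference. The deposited log ratios were read as Cy5 over Cy3, the usual convention. That direction is likely but not stated with the values, and every sign below would turn if it were the other way. The ratios hold no expression levels, so levels cannot be compared between genes, the presence of blood cell markers could not be checked, and spot brightness is unknown. The number of arrays limits the precision. Each control is 1 sample whose own spread is left out, and the p-values measure the spread among these rats. In whole blood, fewer cells of a type and less RNA per cell cannot be told apart. Rat 3631 (2500 mg/kg, 24 h) stood apart: its ratios had the widest spread over genes of all 34 rats (SD 0.60). Proteasome results that rest on it are given with and without it, but the other gene lists were counted only with it.

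The promoters of the 3 immunoproteasome genes are shown because the genes moved in opposite directions at 24 h, as described further on. Each stretch is the RefSeq sequence on build GRCr8 from 250 bases before to 10 bases after the start of the gene, 260 bases, 5′ to 3′ on the strand of the gene. Capitals mark matches, on either strand, to the interferon-stimulated response element (ISRE), searched as GAAA, any 2 bases and GAAA, or to the gamma-activated site (GAS), searched as TTCNNNGAA. Psmb8 lies at chr20:4657022-4657281 on the minus strand, Psmb9 at chr20:4668750-4669009 on the plus strand, and Psmb10 at chr19:50743283-50743542 on the minus strand.
Psmb8: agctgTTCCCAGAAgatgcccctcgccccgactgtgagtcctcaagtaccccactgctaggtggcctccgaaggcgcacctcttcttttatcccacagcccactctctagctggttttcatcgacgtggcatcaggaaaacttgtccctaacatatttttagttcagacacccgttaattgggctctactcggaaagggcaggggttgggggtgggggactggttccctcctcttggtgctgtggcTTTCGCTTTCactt
Psmb9: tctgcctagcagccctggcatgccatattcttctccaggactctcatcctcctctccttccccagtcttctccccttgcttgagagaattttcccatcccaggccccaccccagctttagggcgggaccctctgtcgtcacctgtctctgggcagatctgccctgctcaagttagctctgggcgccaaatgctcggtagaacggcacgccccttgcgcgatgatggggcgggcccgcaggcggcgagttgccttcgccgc
Psmb10: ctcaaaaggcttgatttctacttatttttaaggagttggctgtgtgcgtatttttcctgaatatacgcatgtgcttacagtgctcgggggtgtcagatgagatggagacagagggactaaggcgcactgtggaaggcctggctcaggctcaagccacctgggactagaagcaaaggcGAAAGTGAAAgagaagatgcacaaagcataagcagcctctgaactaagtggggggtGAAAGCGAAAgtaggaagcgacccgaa

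Counted from the gene start, Psmb8 held 1 ISRE match beginning at position -4 and 1 GAS match at -245. Psmb10 held 2 ISRE matches, at -73 and -17, and the stretch of Psmb9 held neither motif. On chromosome 20 the gene order is Tap2, Psmb8, Tap1, Psmb9 and RT1-DMb, inside the MHC, whereas Psmb10 lies on chromosome 19. Promoters of 39 members were listed. In the windows from 250 bases before to 50 after the start, an ISRE match was present in 7 of the 39 (Psma4, Psmb3, Psmb8, Psmb10, Psmd7, Psme2 and Psmg4) and in 3.92% of all 33469 promoters. A GAS match was present in 4 members (Psmb8, Psmc6, Psmd3 and Psmd7) and in 8.87% of all promoters. The antioxidant response element core, searched as TGACNNNGC, was present in 7 members (Psma3, Psmb2, Psmb5, Psmb6, Psmd3, Psmd9 and Psme4) and in 12.1% of all promoters. The ISRE matches stood in genes of both directions, Psmb8 and Psme2 (lower at 24 h) and Psmb10 (higher).

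Against vehicle, the proteasome genes that passed the test were nearly all lower, most of them at 24 h after the highest dose. In the 2500 mg/kg group of 24 h, 22 of the 41 genes fell and 1, Psmb10, rose (limma, adjusted p under 0.05), whereas 15.6% of all genes fell and 10.9% rose. The median over the 41 genes was -0.25 and over all 9653 genes -0.002. After 1500 mg/kg at the same time, 7 genes fell and 0 rose, with 5.74% of all genes lower and 2.34% higher, and the median was -0.14. In the 150 mg/kg group of 24 h no gene of the 9653 passed limma's test (0% called), and 0 of the 41 had an unadjusted p under 0.05. In all, 29 of the 41 genes passed against vehicle in at least 1 group, and 12 in none: Psma2, Psma3, Psma6, Psmb4, Psmb5, Psmb6, Psmc3, Psmc6, Psmd7, Psme3, Psme4 and Psmc3ip. Fitted on the 24 h rats alone, the counts of lower genes were 9 at 2500 mg/kg and 4 at 1500 mg/kg. With standard errors widened for a control pool of 6 animals they were 11 and 2. Without rat 3631, 13 genes were lower at 2500 mg/kg and 24 h: 11 of the 22 kept their call and 11 lost it, and Psmb5 and Psmc5 gained one. With rat quality weights, which gave rat 3631 a weight of 0.032, 15 were lower: 13 of the 22 kept their call, 9 lost it and 2 gained one, and Psmb10 lost its call while Psme4 was higher. At 1500 mg/kg and 24 h, 3 were lower without rat 3623, 2 lower and 1 higher without rat 3624, and 16 lower without rat 3625.

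**Figure D1:**
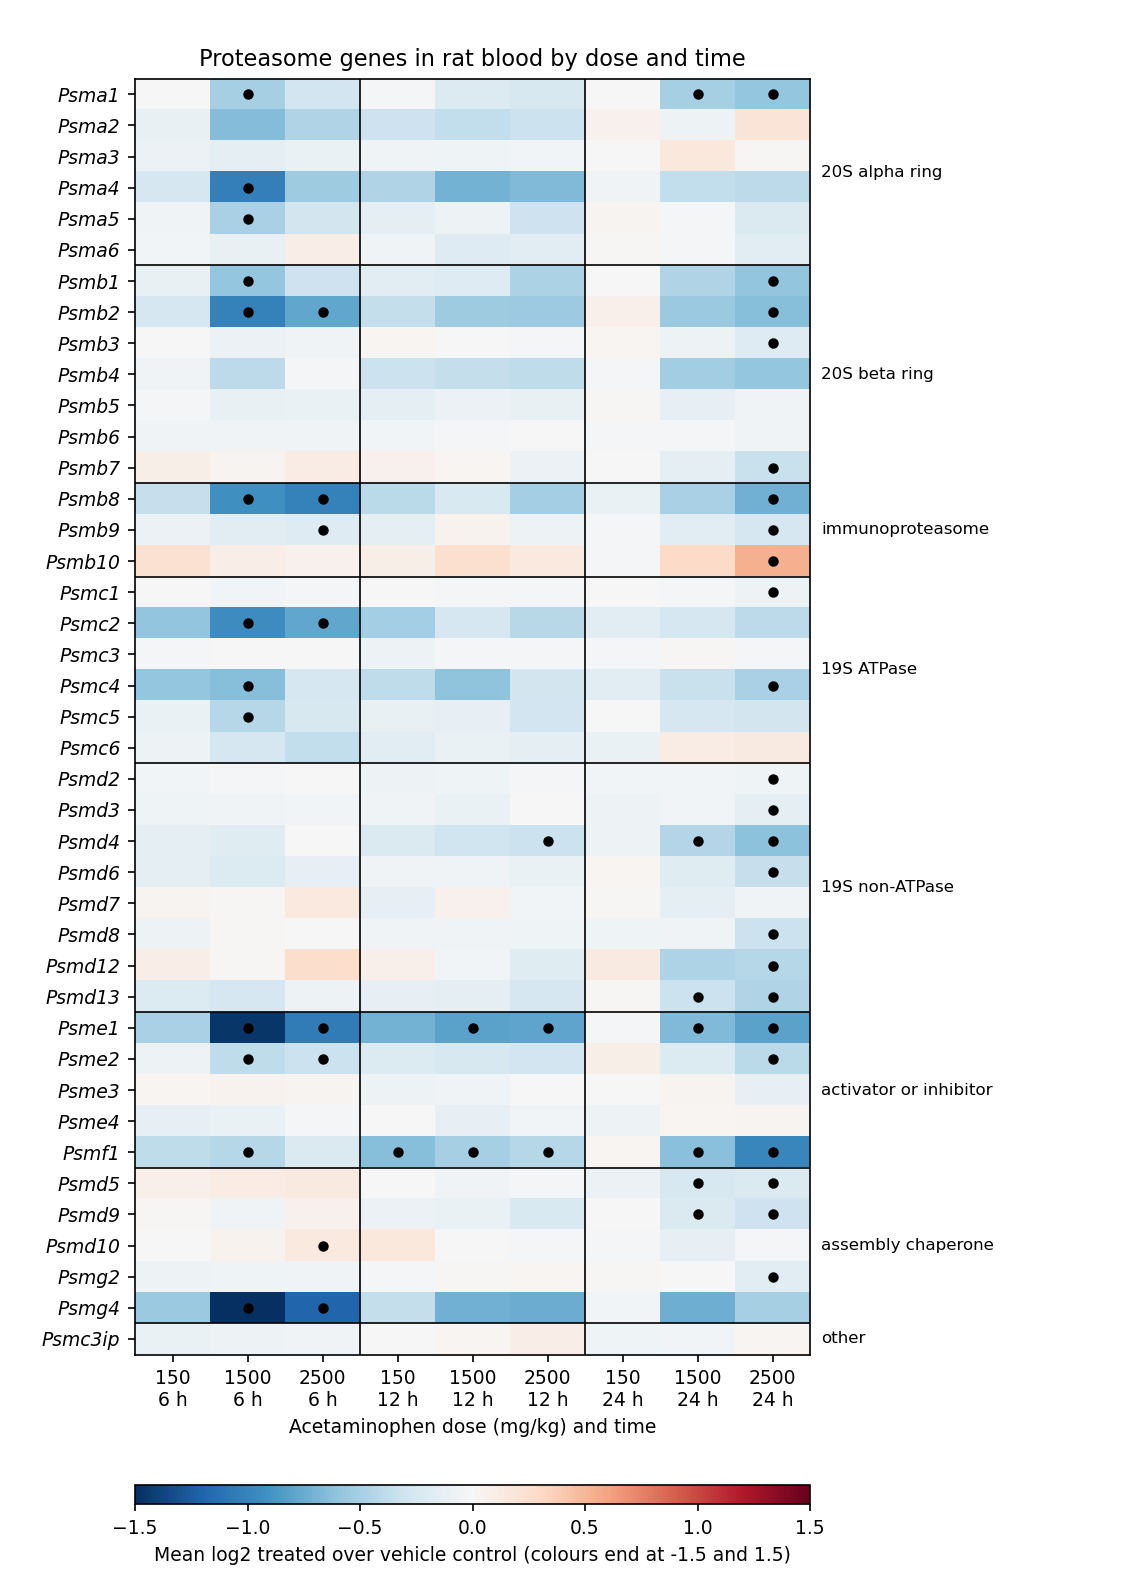
Mean log2 ratio of treated rats over vehicle for the 41 genes (rows, by class) in the 9 dose and time groups (columns, 3 or 4 rats each), with blue for lower and red for higher and colours ending at 1.5 either way. Black dots mark an adjusted p under 0.05 in limma: 22 lower and 1 higher at 24 h after 2500 mg/kg, 13 lower at 6 h after 1500 mg/kg, and none at 24 h after 150 mg/kg.

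At 6 h, genes of the core, the ATPases and the activator fell after 1500 mg/kg. There, 13 of the 41 genes fell and 0 rose, beside 9.24% of all genes lower and 3.48% higher: Psma1, Psma4, Psma5, Psmb1, Psmb2, Psmb8, Psmc2, Psmc4, Psmc5, Psme1, Psme2, Psmf1 and Psmg4. After 2500 mg/kg at 6 h, 7 fell (Psmb2, Psmb8, Psmb9, Psmc2, Psme1, Psme2 and Psmg4), beside 5.18% of all genes, and Psmd10 rose, beside 2.54%. After 150 mg/kg at 6 h, 0 of 41 passed limma's test in either direction (0.932% of all genes lower, 1.07% higher), and 8 had an unadjusted p under 0.05. At 12 h few genes passed: Psmf1 after 150 mg/kg (0.922% of all genes lower, 0.963% higher), Psme1 and Psmf1 after 1500 mg/kg (3.36% lower, 1.48% higher), and Psmd4, Psme1 and Psmf1 after 2500 mg/kg (1.29% lower, 0.0932% higher), all of them lower. The 6 and 12 h calls rest on controls whose spread is unknown: with standard errors widened for a control of 1 animal, 0 of them passed in limma, and with a pool of 4 animals 4 genes were lower at 1500 mg/kg and 6 h, 2 at 2500 mg/kg and 6 h, and 0 at 12 h. In the 1500 mg/kg group of 6 h, 8 genes were lower without rat 3591, and after 2500 mg/kg, 2 were lower without rat 3597 and 2 without rat 3598. At 12 h, the calls after 150 mg/kg were lost without rat 4127 or 4128 and numbered 2 without rat 4137 and 3 without rat 3631. Those after 1500 mg/kg were lost without rat 4132 or 4134, numbered 1 without rat 4133, and numbered 4 without rat 3596, 3598, 3625, 3629, 3631 or 4137. Those after 2500 mg/kg were lost without rat 4135, 4136 or 4138 and numbered 9 without rat 4137 and 5 without rat 3631. The rise of Psmd10 was lost without rat 3595 or without rat 3596.

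The early and the late group of falling genes shared 8 members, namely Psma1, Psmb1, Psmb2, Psmb8, Psmc4, Psme1, Psme2 and Psmf1. These were 61.5% of the genes lower at 6 h after 1500 mg/kg and 36.4% of those lower at 24 h after 2500 mg/kg. Among all genes the same shares were 56.3% and 33.3%, so the overlap of the proteasome genes was close to the background. Without rat 3631, Psmb1, Psmb2 and Psmc4 lost their 24 h call and Psmc5, also lower at 6 h, gained one. These shares were not counted again without that rat. By class, among the 8 non-ATPase subunits of the cap, 0 were lower at 6 h after 1500 mg/kg in limma (3 with an unadjusted p under 0.05) and 7 at 24 h after 2500 mg/kg, beside 9.24% and 15.6% of all genes. Without rat 3631 the 7 were 2, Psmd4 and Psmd13. Among the 6 alpha ring genes, 3 were lower at 6 h and 1 at 24 h. The difference between these times against vehicle was not tested, because each time has its own control.

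Markers of blood cell types moved in the same groups. In the 2500 mg/kg rats of 24 h, 8 of 11 T cell markers, 4 of 5 B cell markers and 4 of 4 platelet markers fell, 4 of 6 neutrophil markers rose, and 3 of 6 reticulocyte markers fell while 2 rose. Of all genes, 15.6% fell and 10.9% rose there. Among the T cell markers called lower, Cd8a ran from -0.55 to -0.04, lowest in rat 3631. The median of the T cell list ran from -0.73 to -0.36 over these 4 rats and from -0.17 to 0.10 over the 4 rats given 150 mg/kg. The B cell list ran from -0.58 to 0.10 and from -0.21 to 0.11 in these groups, with rat 3631 at 0.10. The neutrophil list ran from 0.75 to 2.48 and from -0.13 to 0.04 in the same groups, with S100a8, S100a9, Mmp8 and Il1r2 higher and Mmp9 and Ncf1 not called. After 1500 mg/kg at 24 h, the median ran from -0.84 to -0.11 for T cell and from -0.51 to -0.20 for B cell markers. It ran there from 1.07 to 2.79 for neutrophil, from -0.83 to -0.40 for reticulocyte and from -0.36 to -0.01 for platelet markers. The monocyte list ran from 0.05 to 0.10 and the NK cell list from -0.05 to 0.03. In that group 5.74% of all genes were lower and 2.34% higher. In the 1500 mg/kg rats of 6 h, 5 of 11 T cell and 4 of 5 B cell markers fell and 3 of 6 neutrophil markers rose, while of 6 monocyte markers Clec4a3 (-1.25) and Lyz2 (-0.81) fell and Csf1r (0.28) rose. The shares of all genes were 9.24% lower and 3.48% higher. In the 2500 mg/kg rats of that time, 3 of 11 T cell and 4 of 5 B cell markers fell, Clec4a3 (-2.70) and Lyz2 (-2.21) fell, 1 of 6 neutrophil markers rose and the platelet marker Pf4 fell. Here 5.18% of all genes were lower and 2.54% higher. At 12 h after 1500 mg/kg, all 4 platelet markers fell (median -1.05), 4 of 11 T cell and 1 of 5 B cell markers fell, and 2 neutrophil markers and Lyz2 rose. Beside them, 3.36% of all genes were lower and 1.48% higher. After 2500 mg/kg at 12 h, 5 of 11 T cell markers fell, beside 1.29% of all genes lower and 0.0932% higher. No NK cell marker was called in the 2500 mg/kg rats at 24 h (0 of 4 in limma, 1 with an unadjusted p under 0.05), and of 6 monocyte markers 2 rose and 1 fell. The part of these cell type shifts in the proteasome results was not tested.

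The immunoproteasome genes did not move together. Psmb8, the inducible counterpart of Psmb5, fell at 6 h after both higher doses and at 24 h after 2500 mg/kg. Psmb9, the counterpart of Psmb6, fell by a smaller amount, and Psmb10, the counterpart of Psmb7, rose at 24 h. Psmb8 stood at -1.18, -1.03, -0.71 and -0.76 in the 4 rats at 6 h after 1500 mg/kg, at -0.65, -0.64, -1.35 and -1.41 after 2500 mg/kg, and at -0.59, -0.03, -0.48 and -0.29 after 150 mg/kg. At 24 h it stood at -0.91, -1.08, -0.81 and -0.11 after 2500 mg/kg, at -1.02, -0.44, -0.07 and -0.44 after 1500 mg/kg and at 0.02, -0.20, -0.12 and -0.08 after 150 mg/kg. At 6 h both higher doses lay wholly below the lowest dose, while at 24 h rat 3631, the rat at -0.11, fell within the range of the lowest dose. The means were -0.92 ± 0.22 (SD, n = 4) and -1.01 ± 0.42 (SD, n = 4) at 6 h after 1500 and 2500 mg/kg, with limma adjusted p = 0.000443 and 0.000263, and -0.73 ± 0.43 (SD, n = 4), a 1.65-fold fall with limma adjusted p = 0.00253, at 24 h after 2500 mg/kg. At 12 h, Psmb8 averaged -0.51 ± 0.44 (SD, n = 4) after 2500 mg/kg and missed the threshold (limma adjusted p = 0.118).

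Psmb9 stood at -0.13, -0.30, -0.42 and -0.16 in the rats at 24 h after 2500 mg/kg, at -0.41, -0.28, -0.05 and 0.05 after 1500 mg/kg, and at -0.01, -0.01, 0.09 and -0.12 after 150 mg/kg. All 4 rats of the highest dose lay just below the lowest rat of the smallest dose. The mean at 2500 mg/kg was -0.25 ± 0.14 (SD, n = 4; limma adjusted p = 0.00276), and at 6 h after the same dose -0.20 ± 0.03 (SD, n = 4; limma adjusted p = 0.036). Psmb10 stood at 0.25, 0.53, 0.57 and 0.77 at 24 h after 2500 mg/kg, at 0.34, 0.49, 0.12 and 0.21 after 1500 mg/kg, and at 0.21, -0.36, 0.22 and -0.20 after 150 mg/kg. The 4 rats of the highest dose lay above all 4 of the lowest, and the 1500 mg/kg rats overlapped both. Its mean was 0.53 ± 0.21 (SD, n = 4) at 2500 mg/kg, a 1.45-fold rise with limma adjusted p = 0.000389, and 0.29 ± 0.16 (SD, n = 4) at 1500 mg/kg, where limma's adjusted p was 0.0807. With rat quality weights the value at 2500 mg/kg was 0.39 and missed the threshold (adjusted p = 0.0676). At 6 and 12 h the means of Psmb10 lay between 0.06 and 0.24 in all 6 groups and none passed.

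**Figure D2:**
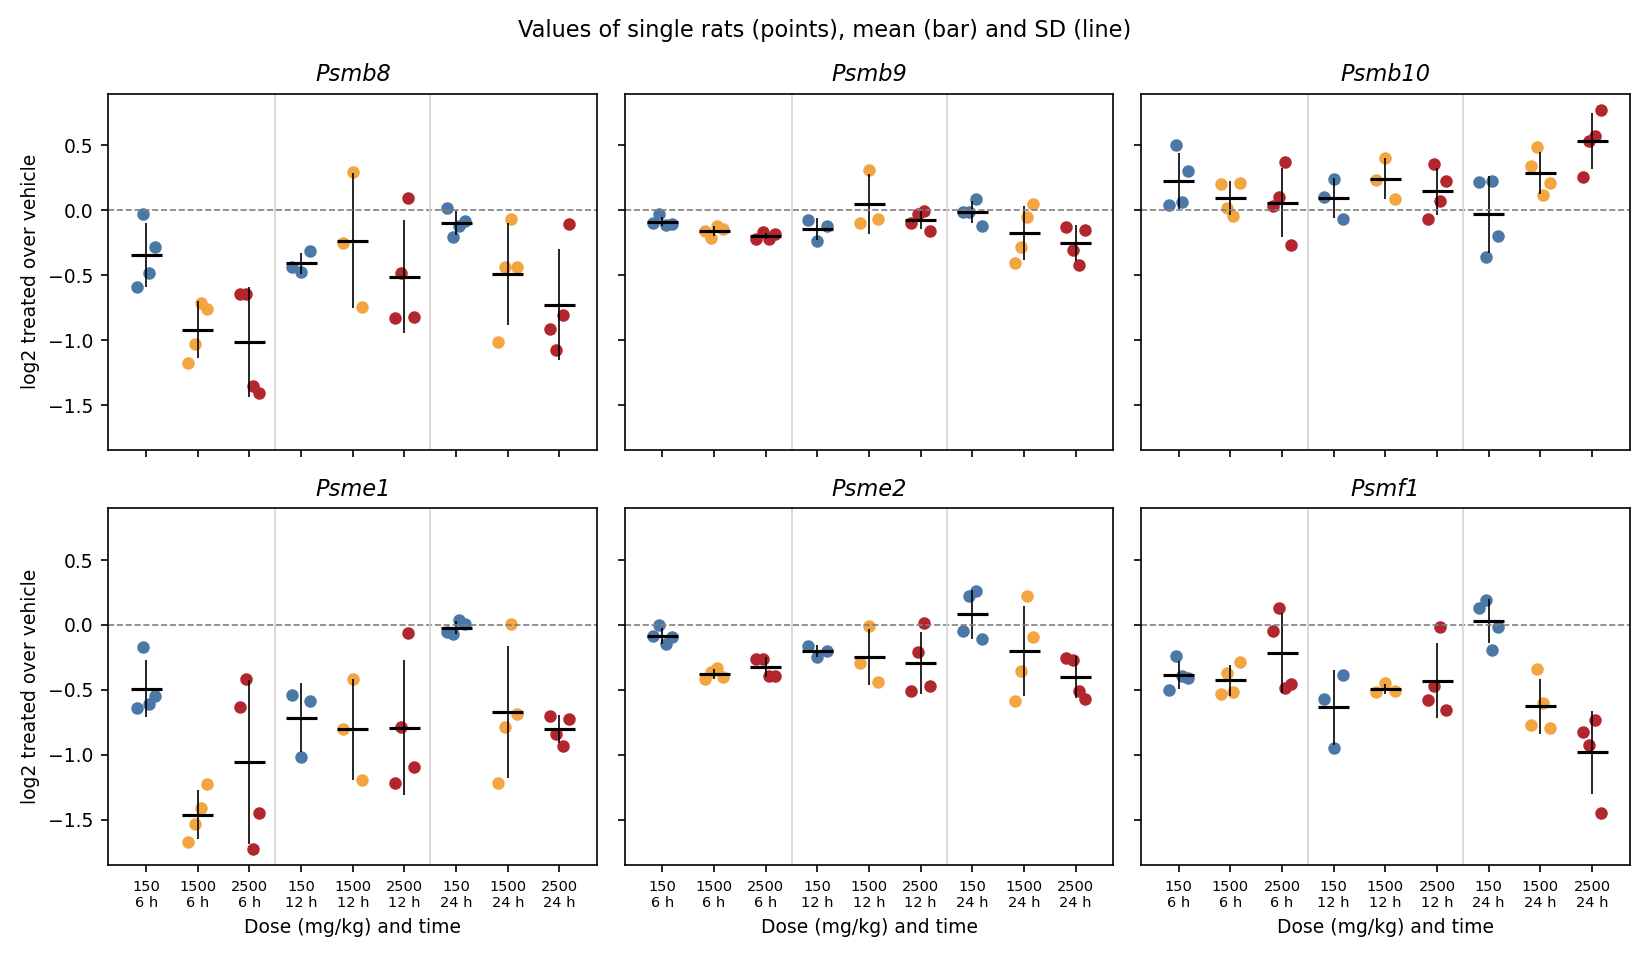
Log2 ratio over vehicle in each of the 34 rats (points) by dose and time for Psmb8, Psmb9 and Psmb10 (top) and Psme1, Psme2 and Psmf1 (bottom), with bars for group means and lines for 1 SD. At 24 h after 2500 mg/kg, the rats sit at 0.25 to 0.77 for Psmb10 and at -1.45 to -0.73 for Psmf1.

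As a set, the 3 immunoproteasome genes stood on different sides of the rest at different times and against different choices of the rest. Within each rat, their mean minus the mean of the 37 other genes was -0.06, -0.12, 0.12 and 0.62 at 24 h after 2500 mg/kg, the last in rat 3631. It was 0.00, 0.36, -0.11 and 0.10 after 1500 mg/kg and 0.18, -0.25, 0.03 and -0.11 after 150 mg/kg. The signs were mixed in all 3 groups at 24 h, and the group mean of 0.14 at 2500 mg/kg was -0.02 without rat 3631. At 12 h the difference was 0.20, 0.36 and 0.08 after 1500 mg/kg and 0.01, 0.12, 0.05 and 0.11 after 2500 mg/kg, above 0 in all 7 rats. For the 2500 mg/kg rats of 6 h it was -0.30, -0.37, 0.10 and -0.25, and for the 1500 mg/kg rats 0.03, -0.09, -0.02 and 0.06. Against the median of the rest in place of the mean, all 8 of these 6 h rats were below 0, at -0.20, -0.28, -0.15 and -0.10 after 1500 mg/kg and -0.29, -0.36, -0.14 and -0.47 after 2500 mg/kg. Against Psmb5, Psmb6 and Psmb7 alone, the same 8 rats ran from -0.62 to -0.18. The 12 h signs were mixed against Psmb5, Psmb6 and Psmb7, at -0.001, 0.35 and -0.19 after 1500 mg/kg. After 2500 mg/kg at 12 h the values were -0.27, 0.004, 0.07 and -0.12. Against the median of the rest, rat 4135 (2500 mg/kg, 12 h) stood at -0.04 and the other rats of these groups above 0. The mean of 3 genes hides a split inside the set: Psmb10 minus Psmb8 was 1.16, 1.61, 1.38 and 0.88 in the rats at 24 h after 2500 mg/kg and 0.20, -0.16, 0.35 and -0.12 after 150 mg/kg. It was above 0 in every rat at 6 h, where it ran from 0.53 to 1.72, and the lowest value at 12 h was -0.03. After 150 mg/kg at 6 h it ran from 0.53 to 0.63. All rats of a time share 1 control, whose own value shifts all of them together, so a common sign is not independent between rats. Psmb10 minus Psmb9 was 0.38, 0.83, 0.99 and 0.93 at 24 h after 2500 mg/kg. These differences are descriptions and carry no test.

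**Figure D3:**
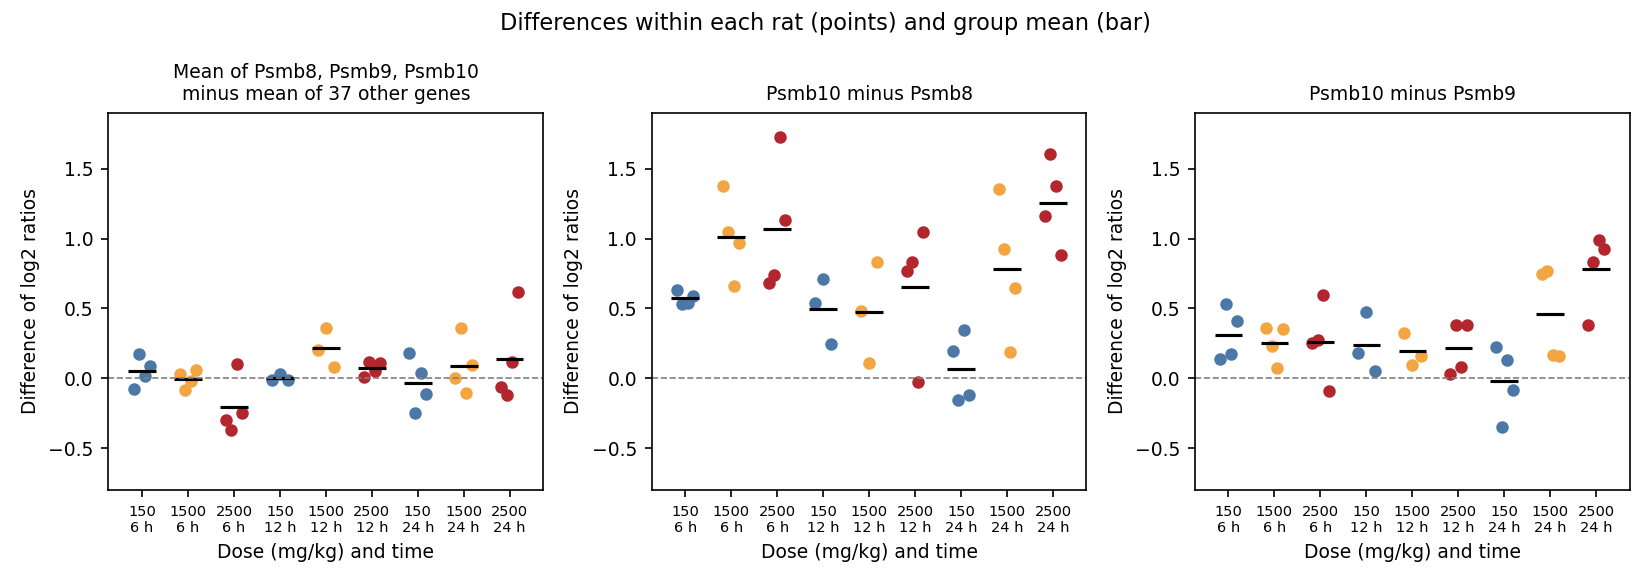
Differences of log2 ratios within each of the 34 rats (points; bars, group means) by dose and time: the 3 immunoproteasome genes minus 37 other proteasome genes (left), Psmb10 minus Psmb8 (middle) and Psmb10 minus Psmb9 (right). The left panel straddles 0 in most groups, whereas Psmb10 minus Psmb8 lies between 0.88 and 1.61 at 24 h after 2500 mg/kg.

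The constitutive catalytic subunits that the 3 replace moved little. Psmb5 stood at -0.12, -0.20, -0.22 and 0.30 at 24 h after 2500 mg/kg, with a mean of -0.06 ± 0.24 (SD, n = 4; limma adjusted p = 0.411). Psmb6 stood at 0.01, 0.02, -0.06 and -0.17, with a mean of -0.05 ± 0.09 (SD, n = 4; limma adjusted p = 0.202). Psmb7 stood at -0.17, -0.10, -0.02 and -1.06, and its mean of -0.34 ± 0.49 (SD, n = 4) passed with limma adjusted p = 0.00759. That call rests on rat 3631: without it the mean was -0.10 and the adjusted p 0.168. Psmb5 passed without that rat, at -0.18 (limma adjusted p = 0.000771). In the 8 other groups, Psmb5, Psmb6 and Psmb7 had means between -0.15 and 0.11 and none passed.

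The genes of the PA28 activator, an interferon-inducible cap made of Psme1 and Psme2, fell early and late. Psme1 stood at -1.67, -1.53, -1.41 and -1.23 at 6 h after 1500 mg/kg, at -0.63, -0.41, -1.72 and -1.45 after 2500 mg/kg, and at -0.64, -0.17, -0.61 and -0.55 after 150 mg/kg. The 1500 mg/kg rats lay wholly below the 150 mg/kg rats, while after 2500 mg/kg 2 rats overlapped the lowest dose and 2 lay far below it. The mean of -1.46 ± 0.19 (SD, n = 4) after 1500 mg/kg was a 2.75-fold fall (limma adjusted p = 9.31e-06). At 12 h, Psme1 averaged -0.80 ± 0.39 (SD, n = 3) after 1500 mg/kg and -0.79 ± 0.52 (SD, n = 4) after 2500 mg/kg, with limma adjusted p = 0.0268 and 0.0273. At 24 h it stood at -0.70, -0.84, -0.93 and -0.72 after 2500 mg/kg and at -0.06, -0.07, 0.04 and 0.01 after 150 mg/kg. These groups were far apart, and the mean of -0.80 ± 0.11 (SD, n = 4) passed with limma adjusted p = 0.00216. After 1500 mg/kg the 24 h rats stood at -1.22, -0.78, 0.01 and -0.69, of which rat 3625 was at 0.01.

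Psme2, the partner of Psme1, passed in fewer groups: lower at 6 h after both higher doses and at 24 h after 2500 mg/kg. It stood at -0.42, -0.36, -0.33 and -0.40 at 6 h after 1500 mg/kg, where the mean was -0.38 ± 0.04 (SD, n = 4; limma adjusted p = 0.00511). At 24 h it stood at -0.25, -0.27, -0.51 and -0.57 after 2500 mg/kg and at -0.04, 0.23, 0.26 and -0.11 after 150 mg/kg. Those groups did not overlap, and the mean at 2500 mg/kg was -0.40 ± 0.16 (SD, n = 4; limma adjusted p = 0.00188). Psme3, the nuclear relative of this activator, averaged -0.12 ± 0.30 (SD, n = 4) and Psme4, the PA200 activator, 0.04 ± 0.21 (SD, n = 4) at 24 h after 2500 mg/kg, and neither was called in any group.

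Psmf1, which encodes the proteasome inhibitor PI31, had the lowest mean of the 41 genes at 24 h after 2500 mg/kg. It stood at -0.82, -0.92, -0.73 and -1.45 after 2500 mg/kg, at -0.77, -0.34, -0.60 and -0.79 after 1500 mg/kg, and at 0.13, 0.19, -0.19 and -0.01 after 150 mg/kg. Both higher doses lay wholly below the lowest dose. The means were -0.98 ± 0.32 (SD, n = 4), a 1.97-fold fall (limma adjusted p = 3.69e-07), and -0.63 ± 0.21 (SD, n = 4; limma adjusted p = 0.00033). At 12 h the 3 doses stood side by side, at -0.63 ± 0.29 (SD, n = 3), -0.49 ± 0.04 (SD, n = 3) and -0.43 ± 0.29 (SD, n = 4) from the lowest to the highest dose, and all 3 passed in limma. At 6 h it was called after 1500 mg/kg, with a mean of -0.43 ± 0.12 (SD, n = 4; limma adjusted p = 0.00993). Psmf1, Psma1, Psmb8, Psmd4, Psmd9, Psmd13 and Psme1 stayed called lower at 24 h after 2500 mg/kg under each of the 41 alternatives run.

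In the core, Psma1 was the alpha ring gene that fell at 24 h, while Psma4 and Psma5 fell early. Psma1 stood at -0.49, -0.38, -0.61 and -0.84 at 24 h after 2500 mg/kg and at -0.32, 0.16, 0.22 and -0.09 after 150 mg/kg, which did not overlap. Its mean was -0.58 ± 0.20 (SD, n = 4; limma adjusted p = 0.00186), and after 1500 mg/kg -0.50 ± 0.46 (SD, n = 4; limma adjusted p = 0.0133). Early, at 6 h after 1500 mg/kg, Psma1 stood at -0.48, -0.59, -0.42 and -0.50, a tight group (mean -0.50 ± 0.07, SD, n = 4; limma adjusted p = 0.00944). Psma4 at that time averaged -1.02 ± 0.14 (SD, n = 4), a 2.03-fold fall that both of its probes showed (-0.91 and -1.14). It averaged -0.39 ± 0.22 (SD, n = 4) at 24 h after 2500 mg/kg and was not called there. Psma2, Psma3 and Psma6 had means between -0.16 and 0.20 at 24 h after 2500 mg/kg.

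Of the 7 beta ring genes, 4 fell at 24 h after 2500 mg/kg, beside 15.6% of all genes. They were Psmb1, Psmb2, Psmb3 and Psmb7, of which the first 3 are structural and not catalytic. Psmb1 stood at -0.52, -0.49, -0.55 and -0.81 after 2500 mg/kg and at -0.16, 0.15, 0.05 and -0.02 after 150 mg/kg, with no overlap (mean -0.59 ± 0.15, SD, n = 4; limma adjusted p = 0.0109). Psmb2 stood at -0.42, -0.47, -0.92 and -0.76 after 2500 mg/kg, below all rats at 150 mg/kg (mean -0.64 ± 0.24, SD, n = 4; limma adjusted p = 0.0284). Its 2 probes gave -0.69 and -0.60. Psmb3 stood at -0.05, -0.04, -0.07 and -0.61, a value near 0 in 3 rats and low in rat 3631. Its mean was -0.19 ± 0.28 (SD, n = 4; limma adjusted p = 0.0113) and -0.05 without that rat (adjusted p = 0.287). Psmb1 and Psmb2 also lost their calls without it (limma adjusted p = 0.0658 and 0.101), though their means stayed at -0.52 and -0.60. At 6 h after 1500 mg/kg, Psmb2 averaged -1.01 ± 0.20 (SD, n = 4) and Psmb1 -0.59 ± 0.13 (SD, n = 4), and both passed. Psmb4 averaged -0.58 ± 0.31 (SD, n = 4) at 24 h after 2500 mg/kg and missed the threshold (limma adjusted p = 0.0543).

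Among the ATPases of the cap, 2 of 6 were lower at 24 h after 2500 mg/kg, beside 15.6% of all genes. Psmc4 stood at -0.65, 0.07, -0.89 and -0.48, with a mean of -0.49 ± 0.40 (SD, n = 4; limma adjusted p = 0.024). Psmc1 stood at 0.02, -0.02, -0.06 and -0.25, and its small mean of -0.08 ± 0.12 (SD, n = 4; limma adjusted p = 0.0435) was -0.02 without rat 3631. Neither group was clear of the 4 rats at 150 mg/kg. Psmc4 and Psmc1 both lost their calls without rat 3631 and with rat quality weights, and Psmc5 gained a call in each of these fits. At 6 h after 1500 mg/kg, Psmc2 averaged -0.95 ± 0.10 (SD, n = 4; limma adjusted p = 0.000867), Psmc4 -0.63 ± 0.26 and Psmc5 -0.43 ± 0.13. The means of Psmc3 lay between -0.07 and 0.02 over the 9 groups, and it was called in none.

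Of the 8 non-ATPase subunits of the 19S cap, 7 were lower at 24 h after 2500 mg/kg, beside 15.6% of all genes. Their class median was -0.33, and 2 were lower without rat 3631. Without that rat 3 of the 5 activators or inhibitors, 3 of the 5 chaperones and 2 of the 3 immunoproteasome genes were lower. Psmd4, a ubiquitin receptor of the cap, stood at -0.60, -0.49, -0.60 and -0.76 after 2500 mg/kg, at -0.55, -0.40, -0.27 and -0.57 after 1500 mg/kg and at -0.01, -0.10, -0.16 and -0.05 after 150 mg/kg. Both higher doses lay wholly below the lowest. The means were -0.61 ± 0.11 (SD, n = 4; limma adjusted p = 1.81e-06) and -0.45 ± 0.14 (SD, n = 4; limma adjusted p = 0.000258). Psmd13, a lid subunit, stood at -0.32, -0.29, -0.40 and -0.79 after 2500 mg/kg, all below the 150 mg/kg rats (mean -0.45 ± 0.23, SD, n = 4; limma adjusted p = 0.0016). Psmd6, another lid subunit, stood at -0.18, -0.10, -0.30 and -0.81 (mean -0.35 ± 0.32, SD, n = 4; limma adjusted p = 0.00311), and without rat 3631 its mean was -0.19 and its adjusted p 0.0757. Psmd8, also of the lid, stood at -0.06, -0.04, -0.003 and -1.16, so its call (mean -0.32 ± 0.56, SD, n = 4; limma adjusted p = 0.0204) rests on that rat, and the mean without it was -0.04. Psmd12, Psmd2 and Psmd3 were lower by 0.43, 0.07 and 0.13 on the log2 scale and lost their calls without that rat too, and Psmd12 was called in 11 of 41 alternatives. The 2 probes of Psmd2 gave -0.16 and 0.03, so its direction is uncertain. Psmd7 averaged -0.05 ± 0.18 (SD, n = 4).

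Assembly chaperones passed the test at both times. Psmd9, Psmd5 and Psmg2 were lower at 24 h after 2500 mg/kg, Psmg4 was lower at 6 h, and Psmd10 was higher at 6 h. Psmd9, a chaperone of the cap's base, stood at -0.32, -0.23, -0.19 and -0.53 at 24 h after 2500 mg/kg and at 0.12, 0.04, -0.12 and -0.01 after 150 mg/kg, with no overlap (mean -0.31 ± 0.15, SD, n = 4; limma adjusted p = 0.00104). Psmg2, a chaperone of the core, stood at -0.02, -0.13, -0.10 and -0.38 (mean -0.16 ± 0.16, SD, n = 4; limma adjusted p = 0.00231), lowest in rat 3631. Psmd5, another base chaperone, stood at -0.32, -0.22, -0.11 and -0.22 (mean -0.22 ± 0.08, SD, n = 4; limma adjusted p = 0.00776). Its 2 probes disagreed, at -0.39 and -0.05, so the size of its fall is uncertain. Psmg4, a core chaperone, stood at -1.69, -1.77, -1.53 and -1.498 at 6 h after 1500 mg/kg, the lowest mean of any member in any group: -1.62 ± 0.13 (SD, n = 4), a 3.07-fold fall (limma adjusted p = 0.000116). After 2500 mg/kg its 6 h rats were spread from -2.12 to -0.29, and at 24 h its mean of -0.49 ± 0.46 (SD, n = 4) missed the threshold. Psmd10, the base chaperone also known as gankyrin, stood at 0.29, 0.23, 0.03 and 0.05 at 6 h after 2500 mg/kg, with a mean of 0.15 ± 0.13 (SD, n = 4; limma adjusted p = 0.0278) against the direction of Psmg4.

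The 4 rats at 6 h after 2500 mg/kg fell into separate pairs for these genes. Rats 3595 and 3596 had proteasome medians of 0.00 and 0.09, with 20 and 17 of 41 genes below 0. Rats 3597 and 3598 had medians of -0.24 and -0.17, with 32 and 35 genes below 0. Marker lists also differed between the pairs: T cell -0.19 and -0.10 against -0.43 and -0.31, neutrophil 0.44 and 0.17 against 0.001 and 0.003. The reticulocyte list stood at 0.20 and 0.30 against -0.12 and -0.04. The pairs overlapped in the B cell list (-0.35 and -0.33 against -0.46 and -0.34) and the platelet list (-0.10 and -0.15 against -0.12 and -0.04). A link to the proteasome values was not tested. At the other times single rats lay near their control: the median was -0.003 in rat 4137 (2500 mg/kg, 12 h), 0.002 in rat 4133 (1500 mg/kg, 12 h) and 0.04 in rat 3625 (1500 mg/kg, 24 h). In rat 4137 the T cell, B cell and neutrophil lists had medians of -0.01, -0.01 and 0.001. In rat 4133 the same lists stood at -0.15, -0.07 and 0.67, and in rat 3625 at -0.11, -0.20 and 2.79.

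Comparing rats with rats removes the control. At 24 h, 2500 against 150 mg/kg gave 7 lower genes and 1 higher of 41 (limma), beside 5.09% of all genes lower and 2.56% higher. Psmf1 differed by -1.01 (95% interval -1.33 to -0.69; limma adjusted p = 0.000145), and Psmd4 by -0.53 (-0.76 to -0.31; adjusted p = 0.00278). Psme2 differed by -0.48 (limma adjusted p = 0.0195), Psmd13 by -0.47 (adjusted p = 0.0378), Psmd6 by -0.38 (adjusted p = 0.0436), Psmd9 by -0.32 (adjusted p = 0.0332) and Psmg2 by -0.17 (adjusted p = 0.0381). The gene that differed upwards was Psmb10, by 0.56 (95% interval 0.27 to 0.86; limma adjusted p = 0.0153). Psmb8 differed by -0.63 and Psmb9 by -0.24, with limma adjusted p = 0.104 and 0.079, and Psme1 by -0.78 (adjusted p = 0.0622). In 12 genes all 4 rats at 2500 mg/kg lay below all 4 at 150 mg/kg, beside 7.99% of all genes, and in Psmb10 they lay above, beside 4.42%. The count of 7 lower genes was 4 without rat 3617, 2 without rat 3618, 3 without rat 3619, 3 without rat 3620, 11 without rat 3629 and 5, with 2 higher, without rat 3631, and on the 24 h rats alone it was 2, with 0 higher. Without rat 3631, Psmd6, Psmd9, Psmd13 and Psmg2 lost their calls (limma adjusted p up to 0.159) and Psmb5, Psmb8 and, upwards, Psme4 gained one. With rat quality weights, Psmb10, Psmd6, Psmd13, Psme2 and Psmg2 lost theirs (adjusted p up to 0.188). Psmf1 was called in all 42 alternatives run for this comparison and Psmd4 in 41.

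**Figure D4:**
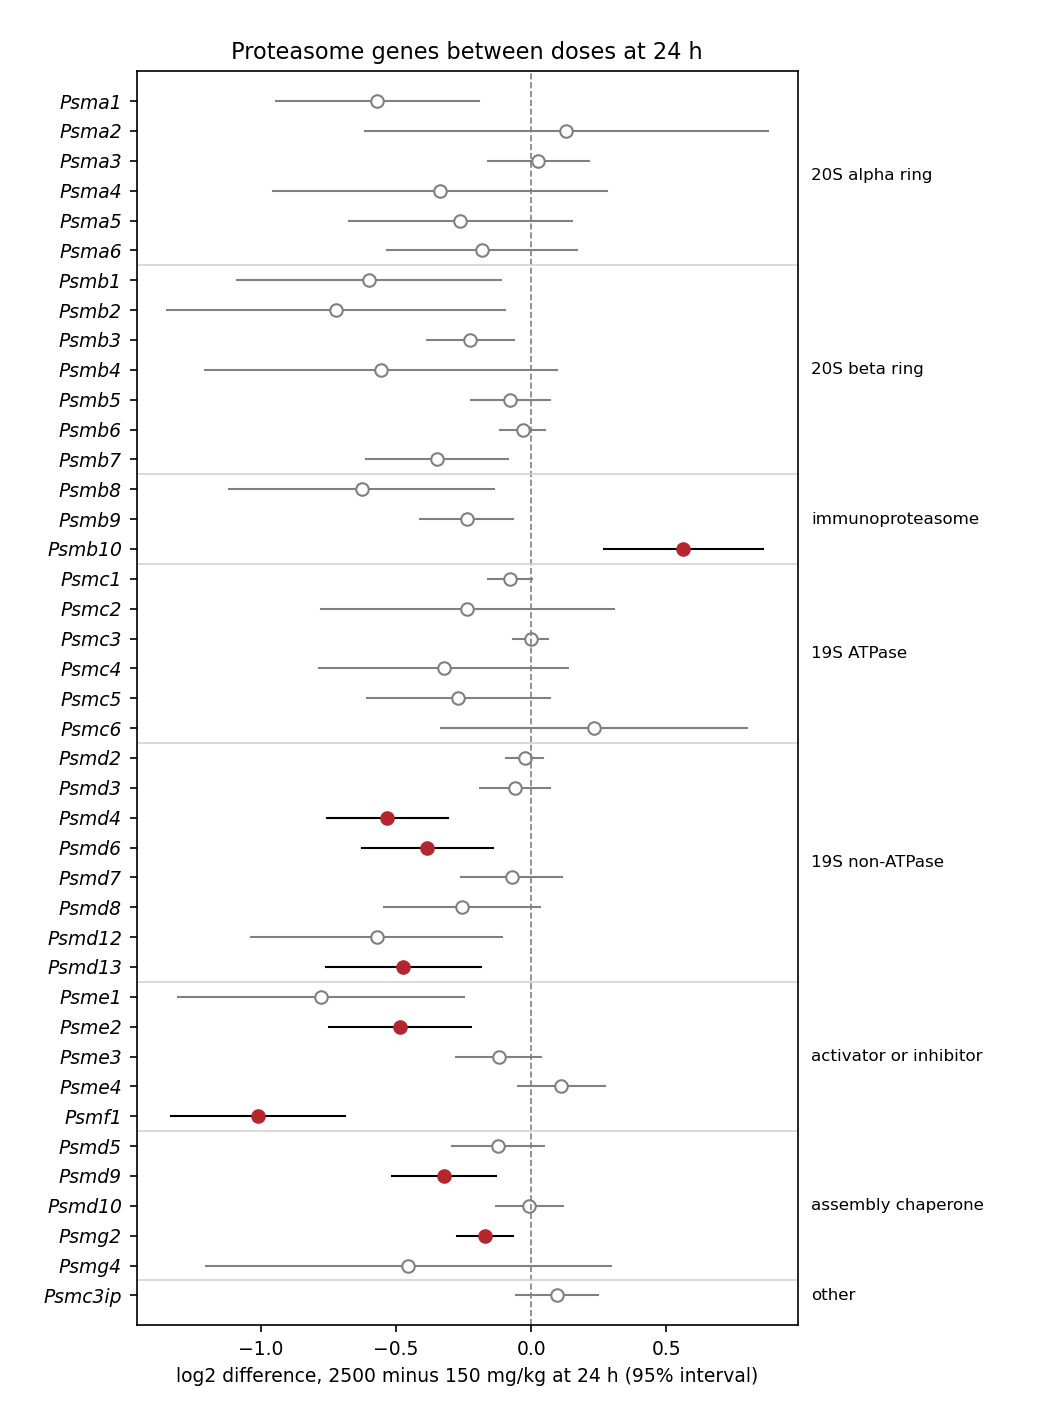
Difference in log2 ratio between the 4 rats given 2500 mg/kg and the 4 given 150 mg/kg at 24 h for the 41 genes by class (points, with the 95% interval from limma). Filled points passed an adjusted p under 0.05: 7 genes lie to the left of 0, with Psmf1 farthest at -1.01, and Psmb10 lies to the right at 0.56.

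The dyes bear on the Psmb10 result. Its mean Cy5 over Cy3 ratio over all 68 arrays was -0.93 on the log2 scale, a dye bias larger than its treatment difference. In the arrays with the treated rat in Cy5 the difference between 2500 and 150 mg/kg at 24 h was 0.93, and in those with the treated rat in Cy3 it was 0.20, with limma adjusted p = 0.0682 and 0.702. With the common dye profile removed from each array it was 0.45 (limma adjusted p = 0.0861). It also missed the threshold without rat 3618 (adjusted p = 0.0772) and without rat 3620 (adjusted p = 0.0531). The sign was positive in all of these. For Psmf1 the same 2 sets of arrays gave -1.10 and -0.92, and for Psmd4 -0.61 and -0.45. All 8 genes called in this comparison had the same sign in both sets of arrays, as did 30 of the 41 genes. Over all genes, the 2 arrays of a rat, turned to treated over control, correlated below 0 in all but 6 of the 34 rats (median -0.45), so averaging over the dye swap is needed for every value here.

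Other dose pairs gave few calls. At 24 h, 1500 against 150 mg/kg gave Psmf1 alone, at -0.66 (95% interval -0.98 to -0.33; limma adjusted p = 0.0192), beside 1.51% of all genes lower and 0.632% higher. That call was lost without rat 3617, 3618, 3623 or 3626, and 4 genes were lower without rat 3625 and 2 without rat 3596, 3597 or 4137. Between 2500 and 1500 mg/kg, no gene of the 9653 passed at any time (0% called), and 0, 0 and 3 of the 41 had an unadjusted p under 0.05 at 6, 12 and 24 h. At 6 h, 1500 against 150 mg/kg gave 0 calls in limma (0.0207% of all genes lower, 8 of the 41 with an unadjusted p under 0.05). All 4 rats nevertheless lay below those of the lower dose in 14 of the 41 genes, beside 12% of all genes, and above in Psmd8, beside 8.67%. At 6 h, 2500 against 150 mg/kg also gave 0 calls (0.124% of all genes lower), with 3 unadjusted p-values under 0.05. At 12 h, neither higher dose gave a call against 150 mg/kg in limma (0% of all genes called, 1 of the 41 with an unadjusted p under 0.05 in each).

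The dose effect changed with time for 2 genes. The difference between 2500 and 150 mg/kg moved from 6 to 24 h by -1.18 in Psmf1 (95% interval -1.64 to -0.73; limma adjusted p = 0.00275) and by -0.68 in Psmd4 (-0.999 to -0.37; adjusted p = 0.0136), beside 1.58% of all genes moving downwards and 0.3% upwards. From 12 to 24 h it moved by -1.22 in Psmf1 (-1.69 to -0.74; limma adjusted p = 0.0222), beside 0.269% of all genes downwards and 0.0414% upwards. The last call was lost without rat 3617, 4127, 4128 or 4137. For Psmb10 the move from 6 to 24 h was 0.73 (limma adjusted p = 0.0598), and for Psmb8 it was 0.04. The other 4 changes gave 0 calls among the 41 genes in limma. For 1500 against 150 mg/kg from 6 to 24 h, 0.228% of all genes moved downwards and 3 of the 41 had an unadjusted p under 0.05, and from 12 to 24 h 0.0104% and 3. From 6 to 12 h no gene passed (0%), and 4 and 1 of the 41 had an unadjusted p under 0.05 for 1500 and 2500 against 150 mg/kg.

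Genes that work with the proteasome were counted in lists of their own. At the highest dose and 24 h, 5 of 23 measured genes of the ubiquitin pathway fell (21.7%) and 1 rose (4.35%), beside 15.6% and 10.9% of all genes, with a median of -0.02. The lowest were Pomp, the maturation factor of the core (-0.56 ± 0.49, SD, n = 4; limma adjusted p = 0.0204), Bag6, a chaperone of misfolded proteins (-0.48 ± 0.35; adjusted p = 0.00157), and Uchl3, a deubiquitinase (-0.35 ± 0.09; adjusted p = 0.0331). Zfand5, a zinc finger protein that binds the proteasome, rose (0.25 ± 0.30, SD, n = 4; limma adjusted p = 0.022). In the 1500 mg/kg rats of 24 h, the segregase Vcp (-0.26 ± 0.16) and its cofactor Ufd1 (-0.52 ± 0.32) fell and Zfand2a, a stress-induced zinc finger protein, rose (0.43 ± 0.48), the other 20 not passing. Of all genes, 5.74% fell and 2.34% rose in that group. Of 12 measured genes of MHC class I presentation and the interferon gamma response, Calr, the chaperone calreticulin, fell at 24 h after 2500 mg/kg (-0.21 ± 0.17, SD, n = 4; limma adjusted p = 0.0108) and none rose, 8.33% lower beside the 15.6% of all genes. The neighbours of Psmb8 and Psmb9, Tap1 and Tap2, which carry peptides into the endoplasmic reticulum, averaged 0.24 ± 0.16 and 0.20 ± 0.71 (SD, n = 4) there and were not called. After 1500 mg/kg at that time, the interferon-induced genes Gbp2 (0.58 ± 0.39) and Cxcl10 (0.57 ± 0.27) rose, beside 2.34% of all genes. None of the 12 fell, beside 5.74%.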

How the data were processed

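Per the labels' protocols, blood RNA of each treated rat and of the vehicle control was labelled with Cy3 and Cy5 and put on 2 arrays with the dyes exchanged. The authors deposited 1 processed log10 ratio per probe and array, limited at 2 in either direction, with array medians from -0.0035 to 0. The scanner software and normalisation are not given in the sources used here, nor is the direction, which was read as Cy5 over Cy3.

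Values were multiplied by 3.32 to give log2, turned to treated over control by dye, averaged over the 2 arrays of a rat and over the probes of a gene. Of 22075 probes, 12750 had 1 gene and were kept, 5 had several and 9320 none. Zeros were 2.76% of values. limma 3.58.1 in R 4.3.3 (lmFit, eBayes) was fitted to 9653 genes with 9 group means over 34 rats (25 residual degrees of freedom) and 24 comparisons, with Benjamini-Hochberg adjustment over all genes and a threshold of 0.05. On simulated data for 2500 mg/kg against vehicle at 24 h (9653 genes), 83% of changes of 0.5 and 98% of changes of 1 on the log2 scale were recovered, with 14 false calls among the unchanged genes. Whether these rates hold for the calls reported, with rat 3631 in the group and the control's spread left out, was not tested. The members and gene lists were chosen with earlier results of these data known. Values of single rats are given in some groups only. They cover the immunoproteasome genes, their counterparts, Psme1 and Psme2. They also cover up to 4 members of each class with the smallest adjusted p among those called at 24 h. From the other lists, up to 3 called genes of highest and of lowest mean were named. Alternatives changed the rats in the fit, scaling, zeros, dye correction, rat weights, probes, the control's spread and the dye used. Promoters are from RefSeq.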

Additional observations from a re-analysis of the deposited data

Results flagged for a closer look

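In groups of 4 rats, 1 rat lay far from the other 3 in 19 of 287 combinations of gene and group (6.62%), and chance marks about 1 in 20. Rat 3631, at 24 h after 2500 mg/kg, gave 7 of the 19. It stood at -0.97 in Psma6, -0.61 in Psmb3, -1.06 in Psmb7, -1.16 in Psmd8, -0.56 in Psme3 and -0.27 in Psme4, below the other 3 rats, and at 0.22 in Psmd7, above them. In the same group, rat 3628 stood at 0.073 in Psma2, below the other 3. At 24 h after 150 mg/kg, rat 3617 stood at -0.76 in Psmc6 and rat 3618 at -0.16 in Psme4. At 6 h after 150 mg/kg, rat 3588 stood apart at -0.032 in Psmb9, 0.095 in Psmc5 and -0.12 in Psmd3, and rat 3587 at 0.049 in Psme3. At 6 h after 1500 mg/kg, rat 3592 stood at 0.10 in Psmb7 and 0.054 in Psmd8, and rat 3591 at -0.62 in Psmc5. Rat 3596, at 6 h after 2500 mg/kg, stood at -0.088 in Psmc3. Rat 4138, at 12 h after 2500 mg/kg, stood at 0.10 in Psmg2.

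The dose effect differed between times by limma's test of the difference in 2 genes. Between 2500 and 150 mg/kg it moved from 6 to 24 h by -0.68 in Psmd4 and by -1.18 in Psmf1, and from 12 to 24 h by -1.22 in Psmf1.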

How the results depend on the processing

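No called value of a gene changed sign under the alternatives run. Of the 2 probes of Psmd2, called lower at 24 h after 2500 mg/kg, 1 stood at 0.026, on the other side of 0. Calls against vehicle depend on how the spread is estimated, and the cause of each change below was not tested unless the setting shows it. Counts are of proteasome genes lower unless higher is written, and shares of all genes were not counted under these alternatives. Fitted on rats of the same time alone, the 6 h counts were 5 and 1 higher after 150 mg/kg, with 2 higher after 2500 mg/kg. All 12 h counts were 0, and the 24 h counts were 4 and 9 after 1500 and 2500 mg/kg. Between doses this fit gave 1 for each higher dose against 150 mg/kg at 6 h, and at 24 h 0 for 1500 and 2, with 0 higher, for 2500 against 150 mg/kg. With rat quality weights, the 6 h counts were 13, 30 and 26 from the lowest to the highest dose, with 1, 2 and 4 higher. At 12 h they were 13, 12 and 17, with 1 higher after 150 mg/kg, and at 24 h 18, with 3 higher, after 1500 mg/kg and 15, with 1 higher, after 2500 mg/kg. In that last group 9 of the 22 lower calls and the call of Psmb10 were lost. Against 150 mg/kg the weights gave 11 and 14 at 6 h for 1500 and 2500 mg/kg, and 6, with 2 higher, at 24 h for 1500 mg/kg. For changes between times they gave 3 and 2 higher (1500, 6 to 24 h), 3 and 1 higher (1500, 12 to 24 h) and 1 and 1 higher (2500, 6 to 12 h). With arrays scaled to the same spread, the counts were 2, 23 and 13 at 6 h, with 3 higher after 2500 mg/kg, and 4, with 1 higher, 1 and 0 at 12 h. Scaling gave 4 for 1500 against 150 mg/kg at 6 h, 4 for 2500 against 150 mg/kg at 24 h, 1 for its change from 6 h and 0 for its change from 12 h. The median at 6 h after 1500 mg/kg became -0.19. With the dye profile removed, the counts were 1 at 6 h after 150 mg/kg and 4 at 12 h after 1500 mg/kg, and 0 were higher for 2500 against 150 mg/kg at 24 h.

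Alternatives with 1 dye orientation were chosen after seeing the data. With the treated rat in Cy3, 2 were higher for each higher dose against 150 mg/kg at 6 h and 0 for 2500 against 150 mg/kg at 24 h. The changes between times were then 2 (1500, 6 to 12 h), 2 (2500, 6 to 12 h), 5 (2500, 6 to 24 h) and 2 with 1 higher (2500, 12 to 24 h). With the treated rat in Cy5, the counts were 1 for 1500 against 150 mg/kg at 6 h and 0 at 24 h, 3 with 0 higher for 2500 against 150 mg/kg at 24 h, and 0 for its change from 6 h. Requiring every probe of a gene to pass gave 1 at 12 h after 2500 mg/kg and 4 at 24 h after 1500 mg/kg. Standard errors widened for a control of 1 animal left 0 lower and 0 higher at 6 and 12 h, and for pools of 4, 4 and 6 animals left 4 and 2 at 6 h after 1500 and 2500 mg/kg with 0 higher, 0 at 12 h, and 2 and 11 at 24 h.

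Leaving out 1 rat at a time gave, against vehicle at 6 h, 0 to 2, 8 to 16 and 2 to 10 from the lowest to the highest dose, with 0 to 1 higher after 2500 mg/kg. At 12 h it gave 0 to 3, with 0 to 1 higher, 0 to 4 and 0 to 9. At 24 h it gave 2 to 16, with 0 to 1 higher, after 1500 mg/kg and 13 to 23 after 2500 mg/kg. For 1500 against 150 mg/kg at 24 h it gave 0 to 4, and for 2500 against 150 mg/kg 2 to 11, with 0 to 2 higher. The changes between times for 2500 against 150 mg/kg were 2 to 2, with 0 to 1 higher, from 6 to 24 h and 0 to 1 from 12 to 24 h. The median at 6 h after 1500 mg/kg ran from -0.15 to -0.12.

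The immunoproteasome mean minus the rest, taken against Psmb5, Psmb6 and Psmb7 alone, was -0.074 and -0.29 at 6 h after 150 and 1500 mg/kg and -0.11, 0.052 and -0.081 at 12 h from the lowest to the highest dose. Against the median of the rest it was -0.18 at 6 h after 1500 mg/kg and -0.042 at 12 h after 150 mg/kg, and against the other 20S subunits 0.065 at 6 h after 1500 mg/kg. Scaled arrays gave 0.047 at 12 h after 150 mg/kg. No paired analysis was possible because rat numbers are not shared between groups.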
